A study of Homo sapiens with 8 samples.

Results

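Around 6 genes of epithelial adhesion and identity (CDH1, CDH3, EPCAM, ESRP1, GRHL2 and DSP), the peaks of CHD4 were collected from every peak list of the series. A peak belonged to a gene if it overlapped the gene's span in hg19 or the 50 kb on either side. Peaks that overlapped between lists were joined into regions, and 14 of the 18808 regions of the whole genome met this rule, with 39 peaks. The data are ChIP-seq (sequencing of DNA precipitated with an antibody to CHD4) from SCC9, a human cell line established from a squamous carcinoma of the tongue. The study compared SCC9 cells without DOC1 (labelled lacZ and -DOC1) with SCC9 cells that have DOC1 (labelled DOC1 and +DOC1). Each group had 3 CHD4 libraries and 1 library with control IgG, which was not analysed here as a sample. The sources used here do not say how DOC1 was given to the cells, or whether a group was 1 clone. All groups were grown in the same medium with fetal calf serum and hydrocortisone.

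CHD4 is the ATP-driven motor of NuRD, the nucleosome remodelling and deacetylase complex, which slides nucleosomes and removes acetyl groups from histones, and DOC1 (CDK2AP1) is a small subunit of that complex. The 6 genes are commonly used to tell epithelial from mesenchymal cells. In an epithelial-mesenchymal transition, cells lose cell contacts and the expression of such genes, and repressors that bind E-box sequences are known to recruit histone deacetylases to some of them. CDH1 and CDH3 encode E-cadherin and P-cadherin, the calcium-dependent proteins of adherens junctions. EPCAM is a surface adhesion protein of epithelia, and DSP (desmoplakin) ties desmosomes to keratin filaments. GRHL2 is a transcription factor that activates epithelial genes, and ESRP1 is a splicing factor that keeps the epithelial isoforms of many transcripts.

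The peak lists held 7027, 2812 and 4723 peaks in lacZ 1, lacZ 2 and lacZ 3, and 7834, 3448 and 11032 in DOC1 1, DOC1 2 and DOC1 3. The number of reads at each summit, the base with the most reads within a peak, was reconstructed from the peak statistics. Its median was between 15 and 38 in the 6 lists, and the weakest listed summit held between 8 and 19 reads. Absence of a peak therefore means only that no summit passed the peak caller's threshold at this depth. The labels do not tie the library numbers to separate cultures, so p-values measure only how far these libraries differ, and that may be technical. Fold enrichment is the authors' own value for each peak, the scaled reads at its summit over the local background, with 1 added to each. It belongs to its own list and was used here to rank peaks within that list. Reads at a summit are given before scaling unless a sentence says otherwise, and the background after it, where scaling multiplies the reads by 1 factor per library.

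CHD4 peaks near these genes lay away from the gene starts, and the windows of GRHL2 and CDH3 held the most regions. No list had a peak within 1 kb of the start of any of the 6 genes. The lists were sparse, with between 0.896 and 3.56 regions per Mb over the genome. The share of other gene starts without a peak was not calculated, so this absence is not shown to be particular to these genes. All 6 genes are transcribed towards higher coordinates, so positions are given in kb from the first base of the gene, negative before it. The peak nearest to a start in any list was 8.97 kb away at GRHL2, 9.55 kb at CDH3, 28.9 kb at CDH1, 34.1 kb at EPCAM, 78.3 kb at ESRP1 and 151 kb at DSP. Of the 14 regions, 6 lay inside a gene span, 4 before a start and 4 past an end. The GRHL2 window held 6 regions, that of CDH3 4, those of CDH1 and EPCAM 2 each, that of ESRP1 1 and that of DSP 0. The windows of CDH1 and CDH3 overlap and share 1 region, which is counted once in the total.

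**Figure D1:**
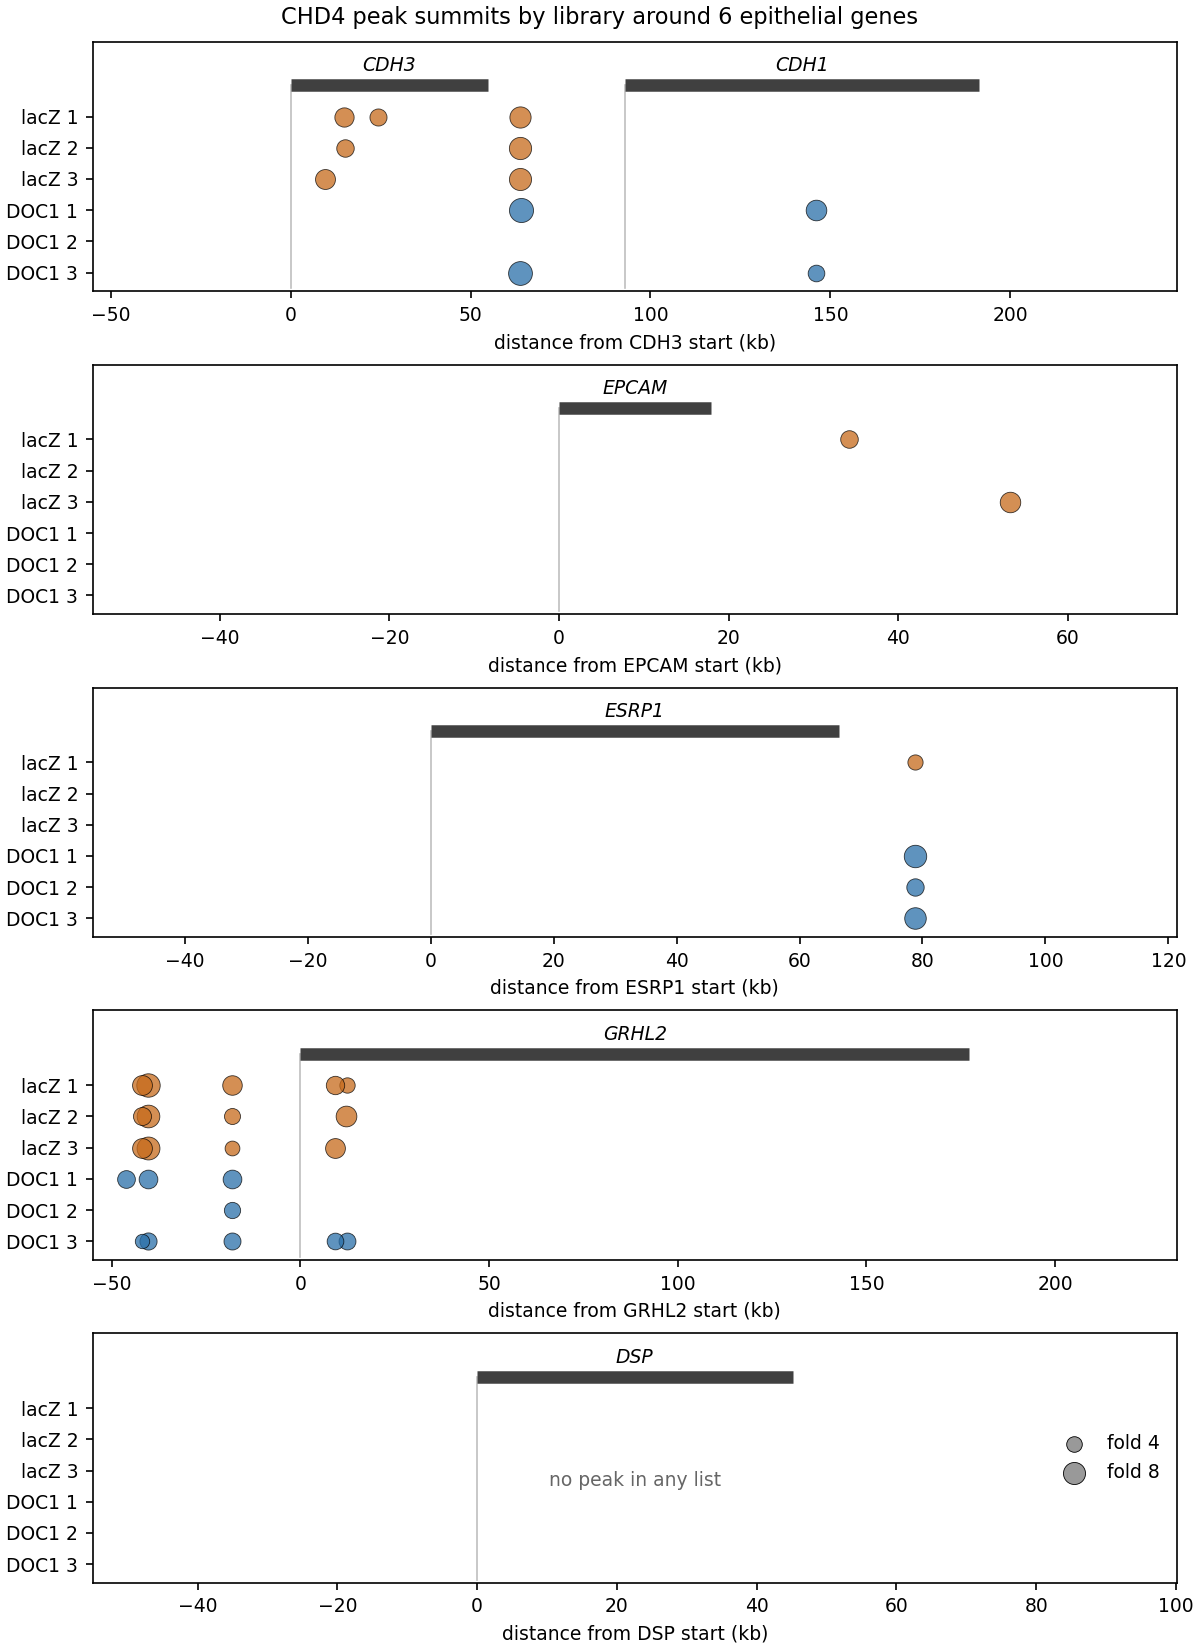
CHD4 peak summits in each of the 6 libraries (rows) by distance from the gene start in kb, with the gene span as a dark bar. Each disc is 1 peak and its area follows the fold enrichment in its own list. Regions of the GRHL2 window gather between -46.2 and 12.4 kb, the CDH3 and CDH1 genes share a region between them, and the DSP window is empty.

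Of the 14 regions, 7 held peaks of 3 or more libraries (50%), against 23.8% of all regions of the genome, and 5 of these 7 lay in the GRHL2 window. Outside that window the share was 2 of 8 (25%), near that of the genome. Only the region at -18.2 kb of GRHL2 held peaks of all 6 libraries. Both groups were present in 7 regions, lacZ alone in 5 and DOC1 alone in 2. Over the genome, 27.8% of regions held both groups, 16.7% lacZ alone and 55.4% DOC1 alone. None of the 14 held peaks of 3 DOC1 libraries and 0 lacZ libraries, a pattern shown by 0.978% of all regions. None held peaks of 3 lacZ and 0 DOC1 libraries either, a pattern of 1.18% of all regions. The smallest two-sided Fisher's exact p for presence in a region was 0.4, which became 1 after Benjamini-Hochberg adjustment over all 18808 regions. With 3 libraries against 3 this test cannot go below 0.1, and it called 0% of the regions of the genome at an adjusted p under 0.05 and 0 at an unadjusted p under 0.05.

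GRHL2, the epithelial transcription factor, had the most CHD4 regions of the 6 genes in windows with flanks of 50 kb. Its window is also the longest (277 kb against 155 kb for CDH3), and CDH3 had more regions per 100 kb (2.58 against 2.16). With the gene span alone CDH3 had 3 regions and GRHL2 2, and with flanks of 10 kb they had 4 and 2. The GRHL2 window with 50 kb flanks held 5, 4 and 4 regions in lacZ 1, lacZ 2 and lacZ 3 and 3, 1 and 5 in DOC1 1, DOC1 2 and DOC1 3. The groups overlapped, and DOC1 2 was the lowest library. The regions lay on chromosome 8 within the first part of the gene or before it, and beyond the region at 12.4 kb the gene held no peak in any list.

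A GRHL2 region at -40.4 kb (chromosome 8, 102463891 to 102464649) had the highest fold of the window in lacZ 1, lacZ 2, lacZ 3 and DOC1 3, and shared it with the region at -18.2 kb in DOC1 1. It was present in all 3 lacZ libraries and in DOC1 1 and DOC1 3, and absent from DOC1 2. Its fold enrichment was 9.04, 8.47 and 8.64 in lacZ 1, lacZ 2 and lacZ 3, with 68, 44 and 36 reads at the summit. In DOC1 1 and DOC1 3 it was 5.77 and 4.85, with 21 and 50 reads. On the scale of the local background the summits held 32.3, 29.5 and 29.1 reads in lacZ and 21 and 28.1 in DOC1 1 and DOC1 3. The backgrounds were 2.69, 2.61 and 2.49 reads in lacZ and 2.82 and 5 in DOC1 1 and DOC1 3. The part of the background in the lower DOC1 folds was not tested. Within their lists these peaks stood at the 91.8th, 85.3rd and 85.8th percentile of fold in lacZ 1, lacZ 2 and lacZ 3 and at the 44.0th and 41.8th in DOC1 1 and DOC1 3, so it ranked high in each lacZ list and below the middle of both DOC1 lists that held it. Lists differ in length and composition, so these ranks do not show a change. The summits lay at 102464236, 102464187 and 102464265 in the lacZ libraries and at 102464277 and 102464306 in DOC1 1 and DOC1 3. They fell within 119 bp of each other, and the median over all regions found in 5 libraries was 159 bp.

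A neighbouring region lay at -42.0 kb (102462297 to 102462927). It was present in all 3 lacZ libraries, with folds of 6.50, 5.36 and 6.46, and in DOC1 3 alone of the DOC1 libraries, with a fold of 3.41. The summits were at 102462689, 102462679 and 102462682 in lacZ and at 102462658 in DOC1 3, within 31 bp, against a median of 151.5 bp for regions in 4 libraries. The DOC1 3 summit held 65 reads, which is 36.6 on the scale of the local background, and that background was 10 reads, at the 98.2nd percentile of its list. In lacZ 1, lacZ 2 and lacZ 3 the summits held 63, 33 and 32 reads, or 30.0, 22.2 and 25.9 on that scale, over backgrounds of 3.77, 3.32 and 3.16 reads. The part of that background in the low fold of DOC1 3 was not tested. In each of the 4 lists that held both regions, the fold at -40.4 kb was above that at -42.0 kb.

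The region at -18.2 kb (102486088 to 102486862) was the only 1 of the 14 with a peak in every library. Its folds were 6.29, 4.23 and 3.60 in lacZ 1, lacZ 2 and lacZ 3 and 5.77, 4.36 and 4.76 in DOC1 1, DOC1 2 and DOC1 3. The DOC1 folds lay within the range of the lacZ folds. The local background was 4 reads in each lacZ library and 2.82, 4.73 and 5 in DOC1 1, DOC1 2 and DOC1 3. It stood at the 81.8th percentile or above in every list, and its part in these folds was not tested. The peak stood low in most lists, at the 65.1st, 7.65th and 2.74th percentile in lacZ and the 44.0th, 18.9th and 39.2nd in DOC1. In lacZ 3 its summit of 21 reads gave a q-value of 0.00188, near the limit of that list (0.00928). The summits lay at 102486473, 102486576 and 102486567 in lacZ and at 102486504, 102486446 and 102486488 in DOC1, within 130 bp.

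Inside GRHL2, 2 further regions held peaks of 3 libraries each. The region at 9.13 kb (102513630 to 102513953) had folds of 5.58 in lacZ 1, 6.46 in lacZ 3 and 4.59 in DOC1 3, and none in the other 3 libraries. Its summits, 102513799, 102513788 and 102513778, lay within 21 bp. The region at 12.4 kb (102516548 to 102517224) had folds of 3.89 in lacZ 1, 7.07 in lacZ 2 and 4.70 in DOC1 3. Here the summits were spread over 263 bp (102517015, 102516857 and 102517120), more than the median of 133 bp for regions in 3 libraries. A last region, at -46.2 kb and 219 bp wide, was found in DOC1 1 alone with a fold of 5.18 and 14 reads.

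**Figure D2:**
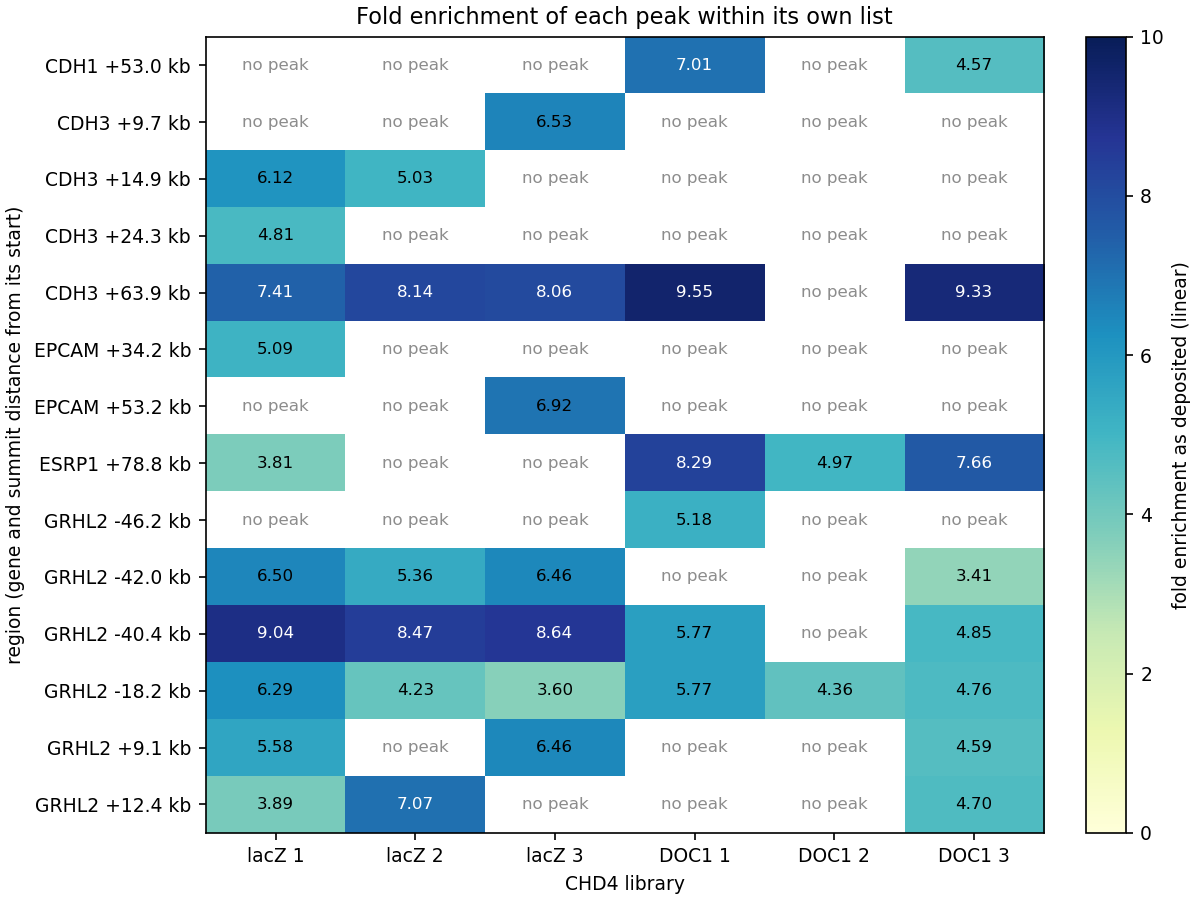
Fold enrichment as deposited (colour and number, linear scale) of each of the 14 regions (rows) in the 6 CHD4 libraries (columns). The row at -18.2 kb of GRHL2 is filled in all 6 columns, the DOC1 2 column holds 2 peaks, and the 3 rows inside CDH3 are filled in lacZ columns only.

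The neighbouring cadherin genes CDH3 and CDH1 shared 1 strong CHD4 region. It lay on chromosome 16 (68741309 to 68742294), at 63.9 kb from the CDH3 start, 9.03 kb past the end of the CDH3 span used here, and at -29.2 kb of CDH1. Its folds were 7.41, 8.14 and 8.06 in lacZ 1, lacZ 2 and lacZ 3, and 9.55 and 9.33 in DOC1 1 and DOC1 3. DOC1 2 had no peak there. The peak ranked high in every list that held it, at the 81.6th, 82.6th and 80.5th percentile in lacZ and the 96.5th and 97.6th in DOC1 1 and DOC1 3. The summits held 68, 48 and 38 reads in lacZ and 22 and 48 in DOC1 1 and DOC1 3. On the scale of the local background they held 32.3, 32.2 and 30.7 in lacZ and 22 and 27.0 in DOC1 1 and DOC1 3. The backgrounds were 3.50, 3.08 and 2.94 reads in lacZ and 1.41 and 2 in DOC1 1 and DOC1 3. The part of the background in the higher DOC1 folds was not tested. The summits lay at 68741970, 68742004 and 68742004 in lacZ and at 68742075 and 68741956 in DOC1 1 and DOC1 3, within 119 bp. CDH3 is longer in the RefSeq annotation of GRCh38 (88462 bp) than in the span used here (54821 bp), and whether the region falls inside a longer CDH3 transcript was not analysed here.

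The order by fold of this region and the GRHL2 region at -40.4 kb differed between lists of the 2 groups. In lacZ 1, lacZ 2 and lacZ 3 the GRHL2 region had the higher fold of the pair, and in DOC1 1 and DOC1 3 the cadherin region had it. In all, the cadherin region was higher in 2 of the 5 lists that held both. Scaled summit reads (cadherin, then GRHL2) were 32.3 and 32.3 in lacZ 1, 32.2 and 29.5 in lacZ 2, and 30.7 and 29.1 in lacZ 3. They were 22 and 21 in DOC1 1 and 27.0 and 28.1 in DOC1 3. The local background was higher at the cadherin region in each lacZ list and lower there in DOC1 1 and DOC1 3. The part of the background in this order was not tested. This pair was chosen after its values were seen, and DOC1 2, which held neither, adds nothing to it.

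**Figure D3:**
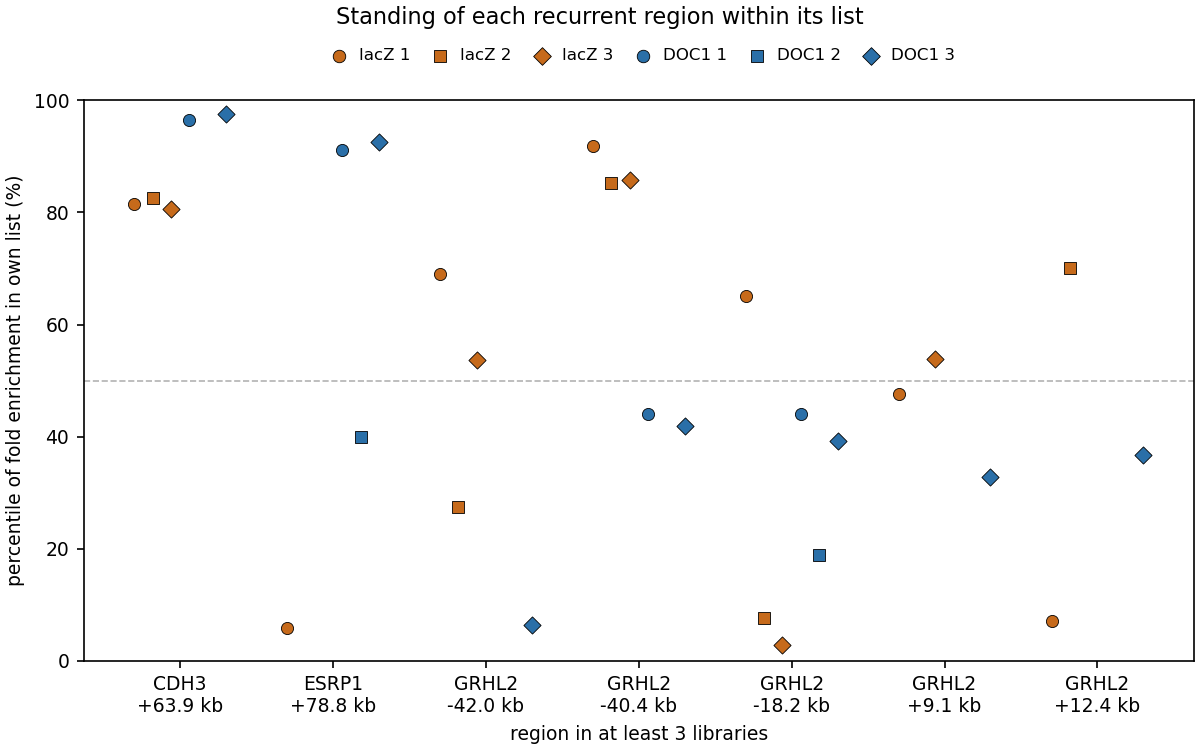
Percentile of fold enrichment within its own list (y axis, in %) for the 7 regions found in at least 3 libraries (x axis), with lacZ libraries in orange and DOC1 libraries in blue and the dashed line at the middle of a list. The cadherin region stands at the 80.5th percentile or above in the 5 lists that hold it, and the GRHL2 region at -40.4 kb at the 85.3rd or above in lacZ and below the middle in DOC1 1 and DOC1 3.

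Inside the CDH3 span, which encodes P-cadherin, peaks were found in lacZ lists alone. They made up 3 regions, at 9.68, 14.9 and 24.3 kb. The first was in lacZ 3 (fold 6.53), the second in lacZ 1 and lacZ 2 (folds 6.12 and 5.03, with summits 157 bp apart), and the third in lacZ 1 (fold 4.81, with 20 reads). No position recurred in all 3 lacZ libraries. Regions of 1 lacZ and 0 DOC1 libraries, as the first and the third, made up 12.3% of all regions, and those of 2 lacZ and 0 DOC1 libraries, as the second, 3.31%. Counting the whole CDH3 window, lacZ 1, lacZ 2 and lacZ 3 held 3, 2 and 2 regions and DOC1 1, DOC1 2 and DOC1 3 held 1, 0 and 1, so the groups did not overlap. Over all 200 kb tiles of the genome with a peak, each lacZ library held more regions than each DOC1 library in 0.736% (the reverse in 2.42%), and in 0.724% of the tiles with 4 or more regions. In lists of equal length, each reduced to its 2812 best peaks by p-value, the CDH3 counts overlapped, with 1, 2 and 2 in lacZ and 1, 0 and 1 in DOC1. They also overlapped with a −log10 q-value of at least 5, with 2, 1 and 2 in lacZ and 1, 0 and 1 in DOC1.

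Inside CDH1, which encodes E-cadherin, 1 region was found, and it was in DOC1 libraries only. It lay at 53.0 kb (68824081 to 68824442) with folds of 7.01 in DOC1 1 and 4.57 in DOC1 3, at 14 and 22 reads, and with summits 12 bp apart. It was absent from DOC1 2 and from all 3 lacZ libraries (Fisher's exact p = 0.4). Regions with this pattern, in 2 DOC1 libraries and no lacZ library, made up 10.5% of all regions. With the shared region, the CDH1 window held 1 region in each lacZ library and 2, 0 and 2 in DOC1 1, DOC1 2 and DOC1 3, so the groups overlapped.

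At ESRP1, the splicing factor, the single CHD4 region lay past the gene. It was at 78.8 kb from the start and 12.4 kb past the end (chromosome 8, 95731616 to 95732443). DPY19L4 is the next protein-coding gene on that side in the RefSeq table of GRCh38. How far the region lies from the start of DPY19L4 was not analysed here. Its place in the ESRP1 window therefore does not tie it to ESRP1 rather than to DPY19L4. The region was present in all 3 DOC1 libraries, where its fold was 8.29 in DOC1 1, 4.97 in DOC1 2 and 7.66 in DOC1 3, and in lacZ 1 with a fold of 3.81. It was absent from lacZ 2 and lacZ 3 (Fisher's exact p = 0.4). The summits lay at 95732084, 95732068 and 95732054 in DOC1 and 95732023 in lacZ 1, within 61 bp. The peak stood at the 91.2nd, 40.0th and 92.5th percentile of the DOC1 lists and at the 5.83rd of lacZ 1. The lacZ 1 summit held 62 reads, which is 29.5 on the scale of the local background, after the library's factor. That background was 7 reads, at the 97.1st percentile of its list. In DOC1 1, DOC1 2 and DOC1 3 the summits held 29, 23 and 72 reads, on the scale of the background 29, 23 and 40.5, over backgrounds of 2.62, 3.83 and 4.42 reads. Whether a high background plays a part in the absence from lacZ 2 and lacZ 3 was not tested. Presence in 1 lacZ and 3 DOC1 libraries was the pattern of 0.734% of all regions.

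EPCAM, the epithelial surface protein, had 2 peaks, each in 1 lacZ library and past the gene. On chromosome 2, lacZ 1 had a peak at 34.2 kb with a fold of 5.09 and 30 reads, and lacZ 3 had a peak at 53.2 kb with a fold of 6.92 and 17 reads. They stood at the 32.7th and 64.0th percentile of their lists. Neither lacZ 2 nor any DOC1 library had a peak in the window, so the groups overlapped at 0. The nearest peaks outside the window lay before it, with summits at -99.2, -99.1 and -99.0 kb in lacZ 1, lacZ 2 and lacZ 3 and at -96.4, -401.8 and -96.8 kb in DOC1 1, DOC1 2 and DOC1 3.

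DSP, which encodes desmoplakin, had no CHD4 peak in its window of 145 kb (chromosome 6, 7491808 to 7636946) in any of the 6 lists. The nearest peaks before the gene had summits at -151.9 kb in lacZ 1 and lacZ 3, 101.8 kb outside the window. In DOC1 1 and DOC1 3 the peak nearest to the start was also before it, 151 kb away. The peak nearest to the window in these 2 lists lay past the gene, 61.2 and 61.4 kb beyond the window edge. Its summit was at 156.7 kb from the start in both, with folds of 6.75 and 5.59. In lacZ 2 the nearest peak was 2765 kb away and in DOC1 2 it was 544 kb away. The stretch before the DSP start in RefSeq (GRCh38.p14, chromosome 6, 7541421 to 7541670, plus strand, 250 bases ending at the base before the start) is shown because DSP was the member of the group with an entry in the promoter table (1 of 6) and because it lies in the window where no list had a peak. Capitals mark E-boxes, the sequence CAGGTG or its reverse complement CACCTG.
DSP: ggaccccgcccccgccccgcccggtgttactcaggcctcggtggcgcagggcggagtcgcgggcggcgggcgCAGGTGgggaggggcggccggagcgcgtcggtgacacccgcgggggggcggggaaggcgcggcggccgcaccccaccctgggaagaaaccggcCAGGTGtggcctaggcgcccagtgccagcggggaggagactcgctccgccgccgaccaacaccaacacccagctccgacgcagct
It held 2 E-boxes, whose first bases lie at -178 and -85 from the start. Over the 35116 promoters of the table, 17.5% held at least 1 in the same stretch and 2.53% held 2 or more. The Grainyhead sequence AACCGGTT (on either strand, found in 0.117% of promoters) and the AP-1 sequence TGANTCA (either strand, 6.57%) were not found in it. It held 33 CG dinucleotides, against a median of 11.

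Taking the 6 windows together, lacZ 1, lacZ 2 and lacZ 3 had peaks in 10, 6 and 7 of the 14 regions and DOC1 1, DOC1 2 and DOC1 3 in 6, 2 and 8. The mean was 7.67 ± 2.08 in lacZ and 5.33 ± 3.06 in DOC1 (SD, n = 3 libraries each). The difference, DOC1 minus lacZ, was -2.33 regions, and without DOC1 2 it was -0.67. In size, -2.33 lay above the SD among the lacZ libraries and below that among the DOC1 libraries. The difference was not tested. DOC1 2 had 2 of the regions, those at -18.2 kb of GRHL2 and past ESRP1.

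As a share of all regions of a library, the windows held more in each lacZ library than in each DOC1 library. The lacZ shares were 0.145%, 0.220% and 0.154% (libraries 1, 2 and 3), and the DOC1 shares 0.0791%, 0.0585% and 0.0737%. Without the GRHL2 window it was 0.0725%, 0.0732% and 0.0659% in lacZ and 0.0395%, 0.0293% and 0.0276% in DOC1, so the groups again did not overlap. Over the 200 kb tiles with at least 4 regions, 12.7% had a higher share in each lacZ library and 5.73% in each DOC1 library. Single tiles are smaller than the windows together, so these percentages do not give the rate for a set of this size. The order of lacZ above DOC1 did not hold in lists of equal length. There the share was 0.143%, 0.219% and 0.217% in lacZ and 0.180%, 0.0717% and 0.107% in DOC1, and DOC1 1 lay above lacZ 1. The windows cover 0.998 Mb in all. Their density was 10.02, 6.01 and 7.01 regions per Mb in lacZ and 6.01, 2.00 and 8.02 in DOC1. Over the genome it was between 0.896 and 3.56 per Mb. The ratio of window to genome density in the same library was 4.42, 6.71 and 4.69 in lacZ and 2.41, 1.79 and 2.25 in DOC1. Leaving out the GRHL2 window left 5, 2 and 3 regions in lacZ and 3, 1 and 3 in DOC1. The density without that window was not calculated, so a higher density at the other genes was not tested.

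**Figure D4:**
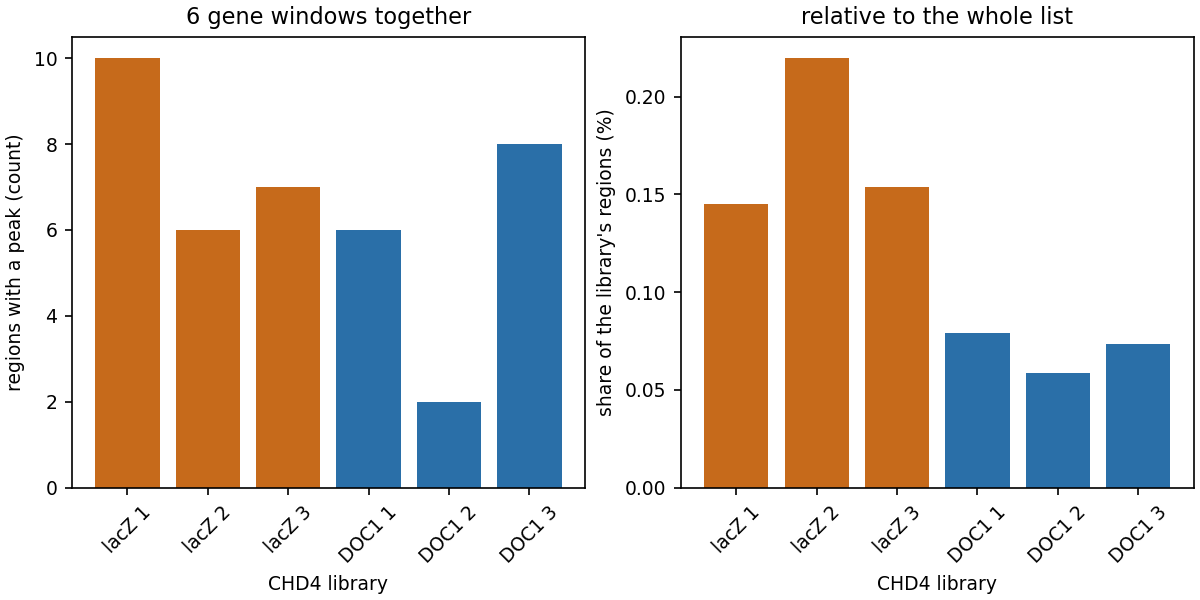
Left, number of the 14 regions with a peak in each CHD4 library, and right, the same as a percentage of all regions of that library, as bars from 0. The counts of both groups overlap (6 to 10 in lacZ and 2 to 8 in DOC1), while the shares, which also depend on list length, are 0.145% or more in lacZ and 0.0791% or less in DOC1.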

How the data were processed

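The genome build was hg19 (GRCh37) and the tools named were MACS2 2.1.1.20160309 for peaks, SAMtools 1.2, BWA 0.7.12-r1039 and Trimmomatic 0.33, per the submitters' processing notes. The sources used here give no command lines, filters or control. The authors deposited 1 narrowPeak list per CHD4 library, not pooled. Each peak has a deposited fold enrichment (a ratio), a deposited −log10 p-value and −log10 q-value, a deposited score equal to the whole part of 10 times the latter, and, as other values the authors deposited, its start, end and summit offset. Per the labels' protocols libraries had 18 PCR cycles and reads of 50 bp, with no molecular identifiers named.

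Peaks sharing at least 1 bp were merged into regions. Presence was tested per region by Fisher's exact test over the whole genome. Reads at a summit were solved from fold and p-value as MACS2 is known to compute them, as a whole number times 1 factor per library, which matched within 0.002 reads for 100% of peaks. In simulated data at least 99.97% of read numbers were recovered. The factor was 0.476, 0.671, 0.809, 1, 1 and 0.562 in lacZ 1 to 3 and DOC1 1 to 3, and the local background is on the scale after this factor. Regions in at least 3 libraries or within 1 kb of a start are described in full, the rest by counts and ranges. The genes, windows and rules were chosen with earlier results of these data known. Gene names of neighbours and the promoter come from RefSeq tables of GRCh38, in which all 6 genes were found by symbol, and no coordinates were converted. Other epithelial genes were not placed, as no hg19 annotation was used here. Scripts ran on Python 3.11.15 with pandas 2.3.3, numpy 2.4.6, matplotlib 3.10.9 and scipy 1.17.1. Alternatives were a stricter threshold, summits in place of peaks, merging within 500 bp, lists of equal length, narrower windows and leaving out each library.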

Additional observations from a re-analysis of the deposited data

How the results depend on the processing

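Summits extended by 100 bp and merging within 500 bp changed none of the summary counts: the 14 regions, the 1 region in all libraries, the 0 in every library of one group and none of the other, the difference of -2.33 regions per library and the smallest p of 0.4. With a −log10 q-value of at least 5, no region (0) was left in all libraries. In lists of equal length 0 regions were in all libraries, 1 was in every DOC1 and no lacZ library (that past ESRP1) and 1 in every lacZ and no DOC1 library (that at -42.0 kb of GRHL2), since the cut removed peaks of the longer lists. With the gene spans alone 6 regions remained and 0 were in all libraries, and with a flank of 10 kb 7 and 0, because the windows are narrower. With 1 library left out, which loosens the rules, the regions numbered 12 to 14, those in all libraries 1 to 3 (3 without DOC1 2), those in every DOC1 and no lacZ library 0 to 1 and the reverse 0 to 1. That in DOC1 was the ESRP1 region without lacZ 1 and the CDH1 region at 53.0 kb without DOC1 2, and that in lacZ was at 14.9 kb of CDH3 without lacZ 3 and at -42.0 kb of GRHL2 without DOC1 3. The difference per library ranged from -3.67 to -0.67 and the smallest p from 0.1 to 0.4. With a replicate block over the numbered pairs (exact sign-flip test) the smallest p was 0.5. The correlation of same-numbered libraries' deviations over all regions was 0.0065, 0.031 and -0.019, and that of differently numbered ones lay between -0.038 and 0.031. Many regions were in 1 group alone (16.7% in lacZ, 55.4% in DOC1), where the other group's libraries do not differ. These values therefore cannot tell whether the numbers stand for more than a label. At this depth, absence of a weak site from a list cannot be told from a summit just under the threshold.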
